A study of Mus musculus with 6 samples.

Results

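Transcript levels of 43 genes of bone morphogenetic protein (BMP) and activin signalling were followed in Grx2-/- and Grx2+/+ mouse BMSCs, bone marrow mesenchymal stem cells, a stromal population able to form bone, fat and cartilage. The members were taken by gene symbol from a table of 22984 genes, and all 43 were found: 12 ligands, 8 receptors, 11 secreted or membrane antagonists and modulators, 8 SMADs and 4 ID genes. The table holds FPKM, a read count divided by gene length and sequencing depth, for 3 Grx2-/- and 3 Grx2+/+ libraries. The series calls the cells O-BMSCs without expanding the prefix, and its labels give no age, strain, treatment or culture condition, nor how the Grx2 deletion was made or whether it reaches beyond these cells. Nor do they state the animal or culture behind each replicate, and p-values below therefore measure only the spread between these libraries, which may be technical.

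BMPs, the related growth and differentiation factors (GDFs) and the activins are secreted dimeric ligands of the TGF-beta superfamily. They bring together type I and type II receptor kinases, which phosphorylate receptor-activated SMADs. Smad1, Smad5 and Smad9 carry mainly the BMP signal, and Smad2 and Smad3 the activin signal. Both kinds enter the nucleus with Smad4, and secreted antagonists such as noggin, gremlin and follistatin bind the ligands before they reach a receptor. In bone marrow stromal cells the BMP arm is known for promoting bone and cartilage formation, and the ID genes are among its most direct transcriptional targets.

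Glrx2, the gene for the thiol-disulfide oxidoreductase glutaredoxin 2 (Grx2), was read 1, 0 and 0 times in the Grx2-/- libraries, against 756, 800 and 761 times in the Grx2+/+ libraries. Depth worked back from the values was 40797879 to 41794919 reads per library. Of 12 stromal markers all were measured above the filter, 5 of them higher and 6 lower in Grx2-/-, with large differences in both directions. Lepr, a marker of marrow stroma, was at 0.0296 to 0.0382 FPKM in Grx2-/- and at 3.42 to 4.48 FPKM in Grx2+/+ libraries. Thy1 and Ly6a, chosen after their values were seen, were higher. Thy1 was at 165 to 170 FPKM in Grx2-/- and 9.51 to 13.6 FPKM in Grx2+/+. Ly6a was at 346 to 385 FPKM in Grx2-/- and 41.9 to 78.4 FPKM in Grx2+/+. The libraries held transcripts of other cells in unequal amounts. Summed over 8 neutrophil markers there were 1.81 to 2.12 FPKM in Grx2-/- and 882 to 2561 FPKM in Grx2+/+ libraries, with 7 of 7 tested markers lower and Retnlg at 0 in every Grx2-/- library. Macrophage markers (8) summed to 2306 to 3116 FPKM in Grx2-/- and 1390 to 1513 FPKM in Grx2+/+, with 7 higher and 0 lower. Endothelial markers (6) summed to 1.11 to 1.34 FPKM in Grx2-/- and 16.3 to 19.4 FPKM in Grx2+/+, with 4 of 4 tested lower and Emcn at 0 in 2 Grx2-/- libraries. Of the 2 untested endothelial markers Flt1 was lower without overlap, while Tek was higher, at 0.555 to 0.647 FPKM in Grx2-/- and 0.252 to 0.284 FPKM in Grx2+/+. Osteoblast markers (8) summed to 2624 to 3027 FPKM in Grx2-/- and 4970 to 5337 FPKM in Grx2+/+, with 6 of 6 tested lower. Most of these sums was Col1a1, also among the stromal markers, with means of 2164 FPKM in Grx2-/- and 3757 FPKM in Grx2+/+. The tested markers were from 1.74-fold (Col1a1) to 219-fold (Ibsp) lower, with Sp7 14.6-fold and Alpl 28.8-fold lower. The untested Bglap and Dmp1 overlapped between genotypes. The leukocyte marker Ptprc was at 7.59 to 12.9 FPKM in Grx2-/- and 4.29 to 5.80 FPKM in Grx2+/+. Muscle markers (4) reached 27.5 FPKM in Grx2+/+ replicate 2 and at most 11.8 FPKM in the other libraries, and erythroid markers at most 0.34 FPKM in any. In such bulk libraries fewer cells of a type and less RNA per cell cannot be told apart, and the part of these cell types in the differences below was not tested.

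In Grx2-/- cells the transcripts of Bmp4 (3.93-fold), of the BMP antagonists Nog (5.52-fold) and Grem1 (3.04-fold), and of the BMP targets Id1 (3.87-fold) and Id4 (5.05-fold) were higher. Those of Bmp5 (9.65-fold), of the activin A chain Inhba (3.52-fold) and of the activin binder Fstl3 (3.91-fold) were lower. Of the activin binders Fst and Fstl3, the more abundant transcript was Fst in Grx2-/- and Fstl3 in Grx2+/+. Among type II receptors Acvr2a gained on Bmpr2, while most SMAD transcripts differed little. Id3, the most abundant ID gene, was only 1.1-fold higher. Of 5 tested BMP or activin targets listed outside the members, 2 rose and 3 fell, Dlx5 by 18.6-fold.

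Of the 43 members, 34 reached a mean of 1 FPKM over the 6 libraries and were tested, and 9 did not. Values of log2(FPKM + 1) were compared with limma across all 11083 genes that passed the same filter, and a gene was called when its Benjamini-Hochberg adjusted p was under 0.05. In Grx2-/- libraries 19 members (55.9% of those tested) rose, 10 (29.4%) fell and 5 were not called, so that 29 (85.3%) were called. Of all tested genes 42.7% were called higher and 24.6% lower, 67.4% in all, a background against which a call alone sets a member little apart. With a 2-fold minimum on the log2(FPKM + 1) scale, 8 members were higher and 3 lower, where 6.49% and 3.54% of all tested genes passed. The 2 genotypes did not overlap for 30 of 34 tested members (88.2%), and for 73.1% of all tested genes. The median log2 difference of the tested members was 0.23, beside 0.09 over all tested genes. With no filter on low values, limma called 8 of the 9 members below the filter, all but Gdf5 (adjusted p = 0.964). That fit called 5499 of all 22984 genes higher and 3614 lower. Rescaling the libraries moved the split of calls. It was 16 higher and 12 lower members with median-of-ratios scaling and 16 and 13 with quantile normalization, which moved the median of all genes by -0.112, and the calls over all genes became 3699 higher and 3670 lower, and 3413 higher and 3945 lower.

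**Figure D1:**
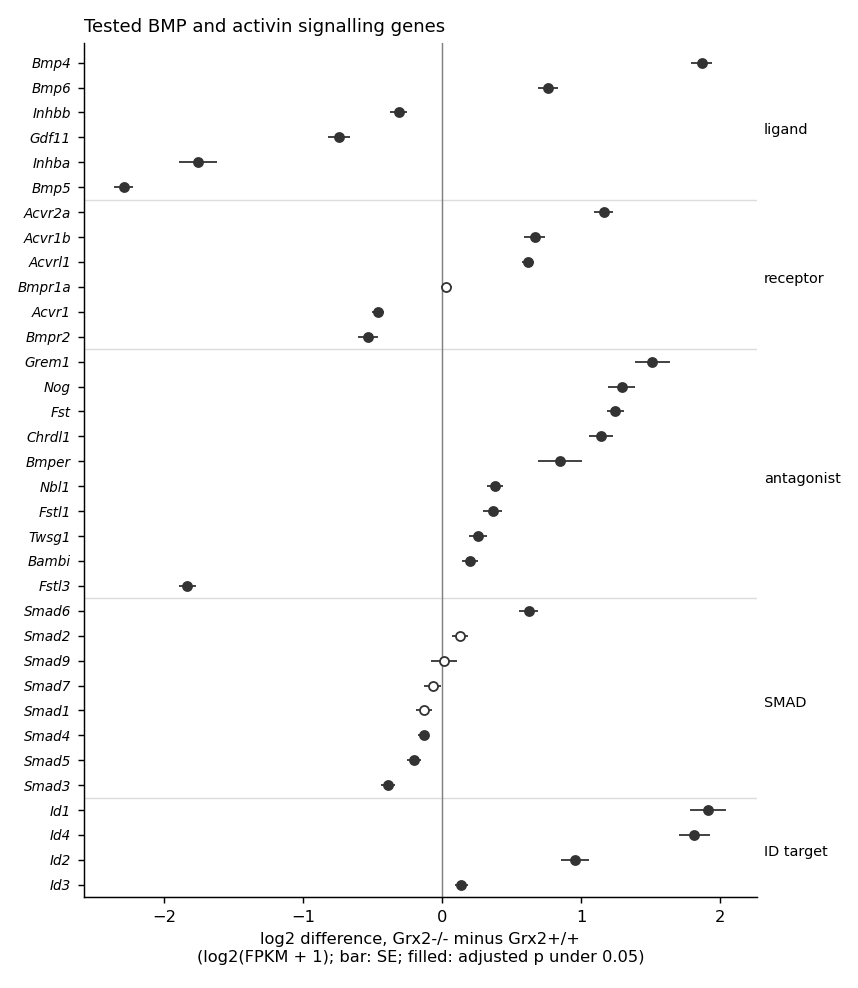
log2 difference, Grx2-/- minus Grx2+/+, of log2(FPKM + 1) for the 34 tested members by role, largest at the top of each role. Points are limma estimates, bars are SE, and filled points have an adjusted p under 0.05; differences ran from -2.29 (Bmp5) to 1.91 (Id1), and the ligands lie on both sides of 0.

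By FPKM, Bmp4 was the most abundant ligand in Grx2-/- libraries and Inhba in Grx2+/+ libraries. Of the 6 tested, 2 rose (33.3%) and 4 fell (66.7%), with a median log2 difference of -0.53. Shares over all tested genes were 42.7% higher and 24.6% lower. Bmp4, an osteogenic BMP that also patterns the embryo, had 39.4, 34.4 and 35.8 FPKM in Grx2-/- libraries, against 8.69, 10.4 and 8.81 FPKM in Grx2+/+ libraries. All Grx2-/- libraries were above all Grx2+/+ libraries, a 3.93-fold difference of the means and a log2 difference of 1.87 ± 0.075 (SE; adjusted p = 3.05e-07). Bmp5, a BMP of the same subfamily as Bmp6 and Bmp7 with roles in skeletal growth, had 0.963, 0.80 and 0.688 FPKM in Grx2-/- libraries and 8.20, 7.70 and 7.75 FPKM in Grx2+/+ libraries. It was 9.65-fold lower, with no overlap (-2.29 ± 0.068, adjusted p = 7.87e-08). Within each library, the ratio of Bmp4 to Bmp5 in FPKM was 40.9 to 52.1 in Grx2-/- and 1.06 to 1.35 in Grx2+/+.

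Inhba encodes the beta A chain, whose dimer is activin A. It had 9.10, 14.2 and 13.1 FPKM in Grx2-/- libraries, lowest in replicate 1, and 41.4, 44.1 and 42.8 FPKM in Grx2+/+ libraries. The groups lay far apart (3.52-fold lower, log2 difference -1.76 ± 0.14, adjusted p = 1.11e-05). Inhbb, which encodes the beta B chain, fell less, at 3.95 ± 0.335 FPKM in Grx2-/- and 5.15 ± 0.175 FPKM in Grx2+/+ (SD, n = 3 each; log2 difference -0.31, adjusted p = 0.00244). Gdf11, a circulating relative of myostatin that signals through Smad2 and Smad3, was at 2.56 ± 0.356 FPKM in Grx2-/- and 4.95 ± 0.198 FPKM in Grx2+/+ (-0.75, adjusted p = 6.9e-05). Bmp6, known in mice as a regulator of hepcidin and of bone, rose to 2.08 ± 0.228 FPKM in Grx2-/-, against 0.816 ± 0.0433 FPKM in Grx2+/+ (0.76, adjusted p = 3.35e-05).

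The other 6 ligands lay under the filter and were not tested. Gdf10, a divergent BMP-3-like ligand, ran from 0.886 to 1.33 FPKM in Grx2-/- and from 0.00655 to 0.221 FPKM in Grx2+/+ libraries. Its Grx2+/+ reads were 1, 34 and 3, so that group was uneven, with replicate 2 highest, while the Grx2-/- libraries had 208, 161 and 136 reads. Gdf6, which acts in joint and skull formation, ran from 0.918 to 1.05 FPKM in Grx2-/- and from 0.232 to 0.433 FPKM in Grx2+/+. Values of Bmp3, an inhibitory BMP of bone, were 0.0232 to 0.0532 FPKM in Grx2-/- and 0.283 to 0.412 FPKM in Grx2+/+. Bmp2, the other main osteogenic BMP, stayed low in both, at 0.308 to 0.503 FPKM in Grx2-/- and 0.555 to 0.640 FPKM in Grx2+/+. Bmp7, a kidney and skeletal BMP, was read 1, 0 and 0 times in Grx2-/- and 16, 27 and 9 times in Grx2+/+ libraries. Only Gdf5, a joint ligand, overlapped between the groups among these 6 (0.105 to 0.175 FPKM in Grx2-/-, 0.0624 to 0.241 FPKM in Grx2+/+).

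**Figure D2:**
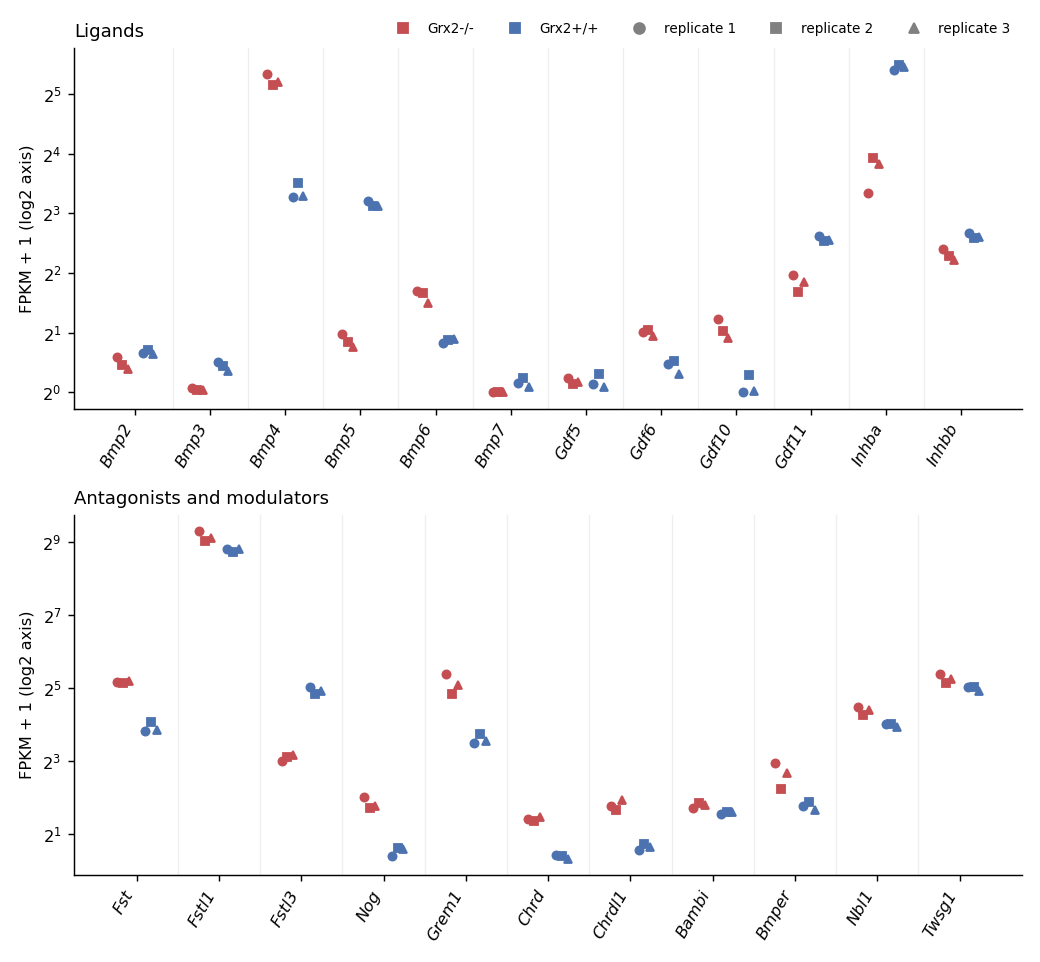
FPKM + 1 on a log2 axis in every library for the 12 ligands and the 11 antagonists and modulators, Grx2-/- in red to the left of Grx2+/+ in blue, with a marker shape for each replicate. Bmp4, Fst, Nog and Grem1 lie higher in all Grx2-/- libraries, and Bmp5, Inhba and Fstl3 lower.

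Receptor transcripts changed in kind more than in summed amount. The 5 type I receptors summed to 55.5 ± 1.54 FPKM in Grx2-/- and 55.6 ± 0.358 FPKM in Grx2+/+, and the 3 type II receptors to 19.5 ± 1.25 FPKM in Grx2-/- and 18.0 ± 1.0 FPKM in Grx2+/+ (SD, n = 3 each), with overlapping ranges. Of the 6 tested receptors, 3 rose (50%), 2 fell (33.3%) and 1 was not called, beside 42.7% higher and 24.6% lower over all tested genes. Acvr2a, a type II receptor for activins and several BMPs, had 9.71, 10.4 and 10.3 FPKM in Grx2-/- libraries and 3.51, 4.23 and 4.24 FPKM in Grx2+/+ libraries. That is 2.54-fold higher with no overlap (log2 difference 1.16 ± 0.069, adjusted p = 2.45e-06). Bmpr2, the type II receptor more selective for BMPs, moved the other way, at 8.14, 9.75 and 9.50 FPKM in Grx2-/- and 13.1, 14.4 and 13.5 FPKM in Grx2+/+ (-0.53, adjusted p = 0.000229). The ratio of Acvr2a to Bmpr2 within a library was 1.07 to 1.19 in Grx2-/- and 0.269 to 0.314 in Grx2+/+. Acvr2b, the second activin type II receptor, was under the filter at 0.153 to 0.217 FPKM in Grx2-/- and 0.308 to 0.345 FPKM in Grx2+/+.

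Among type I receptors, Acvr1 (also called ALK2), the most abundant receptor of the list, had 20.8, 18.8 and 19.8 FPKM in Grx2-/- libraries and 28.4, 27.5 and 27.2 FPKM in Grx2+/+ libraries. The groups did not overlap (-0.46 ± 0.044, adjusted p = 3.63e-05). Bmpr1a (ALK3), the main BMP type I receptor of many mesenchymal cells, was at 18.4 ± 0.693 FPKM in Grx2-/- and 18.1 ± 0.0267 FPKM in Grx2+/+ and was not called (0.03 ± 0.039, adjusted p = 0.56), though with quantile normalization it passed in the other direction (-0.11, adjusted p = 0.0452). Acvr1b (ALK4), the activin type I receptor, rose to 7.51 ± 0.66 FPKM in Grx2-/-, against 4.37 ± 0.353 FPKM in Grx2+/+ (0.66, adjusted p = 0.000101). Acvrl1 (ALK1), the receptor for BMP9 and BMP10 best known from endothelium, rose as well, to 8.64 ± 0.198 FPKM in Grx2-/-, against 5.29 ± 0.136 FPKM in Grx2+/+ (0.62, adjusted p = 7.85e-06). Bmpr1b (ALK6), a type I receptor of cartilage condensations, was under the filter at 1.06 to 1.21 FPKM in Grx2-/- and 0.163 to 0.325 FPKM in Grx2+/+.

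The antagonists were the role with the largest number of rises, 9 of 10 tested, with 1 that fell and a median log2 difference of 0.61. By share the ID genes, with 4 of 4 higher, exceeded them, and 42.7% of all tested genes were called higher. With either rescaling of the libraries 7 of the 10 antagonists were called higher. Nog encodes noggin, which blocks the receptor-binding faces of BMPs. It had 3.05, 2.33 and 2.44 FPKM in Grx2-/- libraries and 0.332, 0.556 and 0.527 FPKM in Grx2+/+ libraries (5.52-fold higher, log2 difference 1.29 ± 0.097, adjusted p = 9.42e-06). Grem1 encodes gremlin 1, an antagonist of BMP2, BMP4 and BMP7, and had 40.6, 28.0 and 33.0 FPKM in Grx2-/- libraries and 10.3, 12.5 and 10.7 FPKM in Grx2+/+ libraries. Replicate 1 was highest within Grx2-/-, and all 3 lay above Grx2+/+ (1.51 ± 0.13, adjusted p = 1.8e-05). Chrdl1, a chordin-like antagonist, had 2.42, 2.16 and 2.83 FPKM in Grx2-/- and 0.494, 0.653 and 0.557 FPKM in Grx2+/+ (1.14 ± 0.084, adjusted p = 8.61e-06).

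Chordin itself, Chrd, just missed the filter with a mean of 0.993 FPKM, while Bmp6, at 1.45 FPKM, was the lowest member above it. Chrd had 1.68, 1.56 and 1.78 FPKM in Grx2-/- and 0.359, 0.331 and 0.252 FPKM in Grx2+/+ libraries, again with no overlap. Summed over Nog, Grem1, Chrd and Chrdl1 there were 40.6 ± 6.91 FPKM in Grx2-/- and 12.5 ± 1.34 FPKM in Grx2+/+ (SD, n = 3 each). Grem1 held 33.9 FPKM of that sum in Grx2-/- and 11.1 FPKM in Grx2+/+. The 10 BMP and GDF ligands summed to 44.6 ± 3.44 FPKM in Grx2-/- and 24.6 ± 1.15 FPKM in Grx2+/+. Bmp4 alone held 36.5 FPKM of the ligand sum in Grx2-/- and 9.31 FPKM in Grx2+/+. Of the other tested ligands in it, Bmp5 and Gdf11 fell and Bmp6 rose, so the sum does not show a rise of the ligands as a group. The ratio of Bmp4 to its antagonist Grem1 within a library was 0.969 to 1.23 in Grx2-/- and 0.827 to 0.846 in Grx2+/+, a far smaller shift than that of either gene. Sums and ratios are descriptions without a test, and they were chosen after values were seen.

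The 2 activin-binding follistatins moved in opposite directions. Fst, follistatin, had 34.9, 34.5 and 35.6 FPKM in Grx2-/- libraries and 13.3, 15.9 and 13.5 FPKM in Grx2+/+ libraries, a 2.46-fold rise (1.25 ± 0.063, adjusted p = 1.03e-06). Fstl3, follistatin-like 3, which also binds activins and myostatin, had 7.09, 7.68 and 7.95 FPKM in Grx2-/- libraries and 31.9, 27.9 and 29.2 FPKM in Grx2+/+ libraries. It was 3.91-fold lower (-1.84 ± 0.06, adjusted p = 1.15e-07). Their sum was 42.0 to 43.5 FPKM in Grx2-/- and 42.7 to 45.2 FPKM in Grx2+/+, with overlapping ranges, while the ratio of Fst to Fstl3 was 4.47 to 4.92 in Grx2-/- and 0.418 to 0.569 in Grx2+/+. Set against the activin A chain, the ratio of Inhba to Fst was 0.261 to 0.412 in Grx2-/- and 2.78 to 3.17 in Grx2+/+.

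Fstl1, a secreted glycoprotein with a follistatin domain and the most abundant member of all, had 629, 519 and 553 FPKM in Grx2-/- libraries and 452, 422 and 445 FPKM in Grx2+/+ libraries (0.36 ± 0.067, adjusted p = 0.00177). Bmper, a crossveinless homologue that binds BMPs, had the largest SE of the tested members, at 6.73, 3.75 and 5.36 FPKM in Grx2-/- and 2.43, 2.66 and 2.20 FPKM in Grx2+/+ (0.85 ± 0.16, adjusted p = 0.00179). Nbl1, of the DAN family, was at 19.8 ± 1.58 FPKM in Grx2-/- and 15.0 ± 0.467 FPKM in Grx2+/+ (0.38, adjusted p = 0.000662). The smallest rises among the antagonists were those of Twsg1, a chordin partner (0.25, adjusted p = 0.00818), and Bambi, a kinase-free pseudoreceptor (0.20, adjusted p = 0.0151). Both calls were lost with either rescaling of the libraries (adjusted p = 0.053 and 0.0776 with median-of-ratios scaling), and that of Bambi also without Grx2-/- replicate 2 or 3 or Grx2+/+ replicate 1 (adjusted p = 0.052, 0.0529 and 0.0502).

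**Figure D3:**
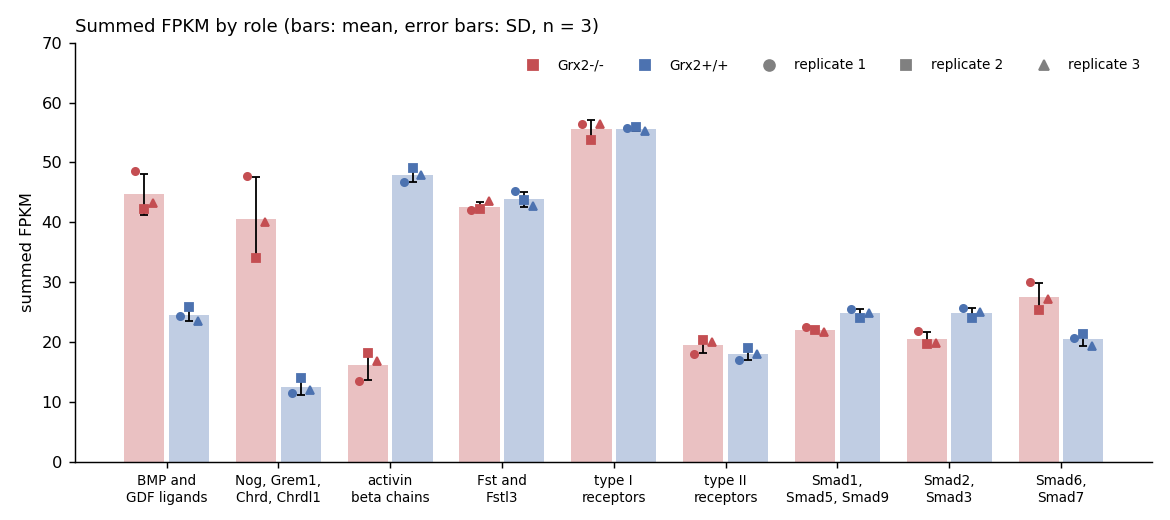
Summed FPKM of members grouped by role, Grx2-/- in red to the left of Grx2+/+ in blue; bars are means, error bars SD over 3 libraries, and points the libraries. The sums of Fst and Fstl3, of the type II receptors and of the type I receptors (55.5 ± 1.54 FPKM in Grx2-/-, 55.6 ± 0.358 FPKM in Grx2+/+) overlap between genotypes. Those of the ligands, mostly Bmp4 in Grx2-/-, the activin chains and the BMP antagonists do not. The SMAD sums do not overlap either, Grx2-/- against Grx2+/+: Smad1, Smad5 and Smad9 (22.0 ± 0.442 against 24.8 ± 0.755 FPKM), Smad2 and Smad3 (20.4 ± 1.24 against 24.9 ± 0.834 FPKM), and Smad6 and Smad7 (27.6 ± 2.30 against 20.4 ± 1.02 FPKM).

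Most SMAD transcripts moved little, and Smad6 moved the most. All 8 were tested, and 1 rose (12.5%), 3 fell (37.5%) and 4 were not called, with differences from -0.39 to 0.62. Over all tested genes 42.7% were called higher and 24.6% lower. Smad3, an activin and TGF-beta SMAD with the highest mean of the 8 over all 6 libraries, had 16.1, 14.5 and 14.6 FPKM in Grx2-/- libraries and 20.7, 19.3 and 20.3 FPKM in Grx2+/+ libraries (-0.39 ± 0.051, adjusted p = 0.000223). Smad2, its partner, was at 5.35 ± 0.377 FPKM in Grx2-/- and 4.82 ± 0.116 FPKM in Grx2+/+ and was not called although the groups did not overlap (0.13, adjusted p = 0.0826; 0.0357 with voom on recovered reads). Smad5, of the BMP arm, fell to 11.5 ± 0.698 FPKM in Grx2-/-, against 13.4 ± 0.483 FPKM in Grx2+/+ (-0.20, adjusted p = 0.00914). Smad1 was at 8.93 ± 0.575 FPKM in Grx2-/- and 9.86 ± 0.49 FPKM in Grx2+/+ (-0.13, adjusted p = 0.0806), with overlapping groups, and passed with either rescaling (adjusted p = 0.0141 and 0.00888) and without Grx2-/- replicate 2 or Grx2+/+ replicate 2 (0.0428 and 0.049). Smad9 was at 1.63 ± 0.268 FPKM in Grx2-/- and 1.60 ± 0.223 FPKM in Grx2+/+ (0.01 ± 0.095, adjusted p = 0.919). The common partner Smad4 was at 14.6 ± 0.501 FPKM in Grx2-/- and 16.1 ± 0.417 FPKM in Grx2+/+ (-0.13, adjusted p = 0.0211), a call lost without Grx2-/- replicate 2 or Grx2+/+ replicate 3 (adjusted p = 0.0662 and 0.087).

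The inhibitory SMADs are induced by the pathway and restrain it, Smad6 mainly the BMP arm and Smad7 both arms. Smad6 had 22.5, 19.0 and 19.8 FPKM in Grx2-/- libraries and 13.2, 13.5 and 12.1 FPKM in Grx2+/+ libraries, all higher in Grx2-/- (0.62 ± 0.069, adjusted p = 9.63e-05). Smad7 overlapped, at 7.13 ± 0.572 FPKM in Grx2-/- and 7.51 ± 0.285 FPKM in Grx2+/+ (-0.07 ± 0.062, adjusted p = 0.355), though it was called lower with either rescaling (adjusted p = 0.0447 and 0.0229). With both rescalings 5 SMADs were called lower.

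The ID genes encode helix-loop-helix proteins without a DNA-binding region, which hold back basic helix-loop-helix factors. The 4 members rose by very different amounts. Id1 had 69.2, 65.6 and 61.7 FPKM in Grx2-/- libraries and 14.2, 21.3 and 15.2 FPKM in Grx2+/+ libraries, with Grx2+/+ replicate 2 the highest of its group and still far below Grx2-/-. It was 3.87-fold higher (1.91 ± 0.13, adjusted p = 5.69e-06). Id4 had 7.52, 8.25 and 8.42 FPKM in Grx2-/- libraries and 1.26, 2.10 and 1.44 FPKM in Grx2+/+ libraries, a 5.05-fold rise (1.81 ± 0.11, adjusted p = 3.33e-06). Id2 was at 71.9 ± 5.22 FPKM in Grx2-/- and 36.8 ± 5.49 FPKM in Grx2+/+ (0.95 ± 0.1, adjusted p = 6.88e-05). Id3, the most abundant of the family, had 204, 223 and 216 FPKM in Grx2-/- libraries and 184, 202 and 198 FPKM in Grx2+/+ libraries. Its groups nearly touched (0.14 ± 0.047, adjusted p = 0.0305), and its call was lost with either rescaling (adjusted p = 0.511 and 0.23), with no filter, without trend and without any 1 of Grx2-/- replicates 2 and 3 and Grx2+/+ replicates 1 and 3 (adjusted p = 0.0546 to 0.104). The 4 genes summed to 359.8 ± 12.9 FPKM in Grx2-/- and 250.2 ± 18.4 FPKM in Grx2+/+, with Id3 the larger part in both. The ratio of Id1 to Id3 was 0.285 to 0.339 in Grx2-/- and 0.0767 to 0.106 in Grx2+/+ libraries.

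**Figure D4:**
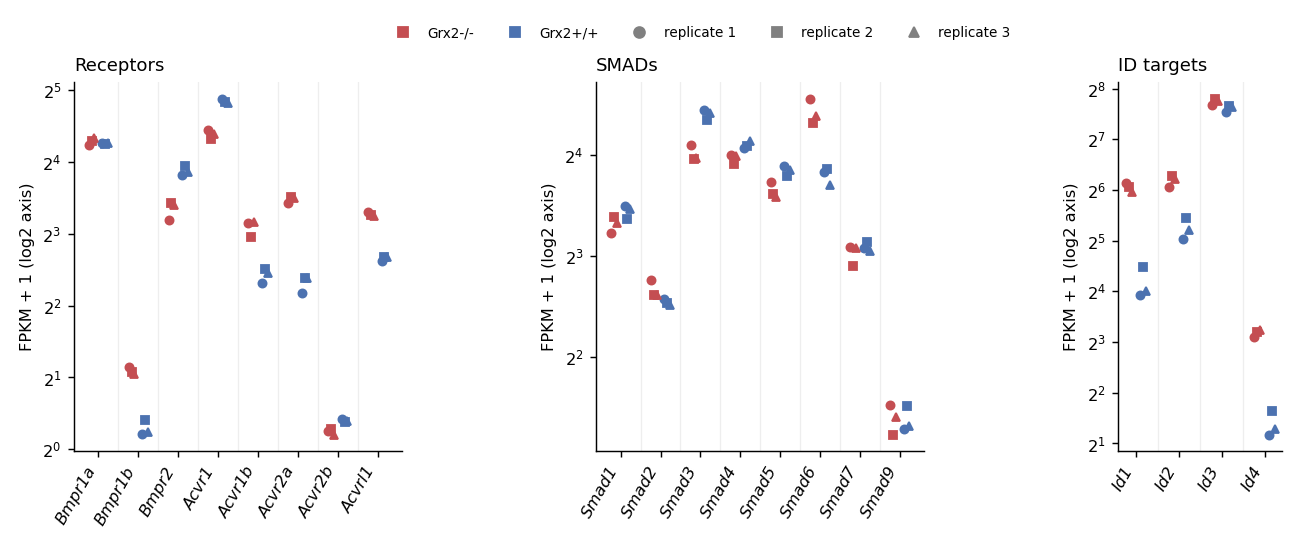
FPKM + 1 on log2 axes, which differ between the 3 panels, in every library for the 8 receptors, 8 SMADs and 4 ID genes, Grx2-/- in red to the left of Grx2+/+ in blue. Id1, Id2 and Id4 are separated by genotype, the Id3 groups nearly touch, and most SMADs lie close together.

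Because the ID genes are direct SMAD targets that moved unequally, the windows from 250 bases before to 50 bases after the start sites of Id2, Id4 and Id3 are shown (Id1 had no window), with RefSeq sequence of build GRCm38.p6 (29 of the 43 members matched). Capitals mark GGCGCC, a GC-rich element to which the BMP SMADs bind, and CAGAC, the shorter SMAD element, both searched on both strands (CAGAC then reads GTCTG). The motifs can share at most 1 base. The windows are chr12:25096043-25096342 on the minus strand for Id2, chr13:48260866-48261165 on the plus strand for Id4 and chr4:136143572-136143871 on the plus strand for Id3.
Id2: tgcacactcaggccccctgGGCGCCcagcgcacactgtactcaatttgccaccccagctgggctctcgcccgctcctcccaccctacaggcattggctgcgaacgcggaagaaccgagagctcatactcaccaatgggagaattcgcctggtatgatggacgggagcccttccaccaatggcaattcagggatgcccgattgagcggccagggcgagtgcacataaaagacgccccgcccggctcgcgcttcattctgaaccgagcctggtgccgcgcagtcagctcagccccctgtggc
Id4: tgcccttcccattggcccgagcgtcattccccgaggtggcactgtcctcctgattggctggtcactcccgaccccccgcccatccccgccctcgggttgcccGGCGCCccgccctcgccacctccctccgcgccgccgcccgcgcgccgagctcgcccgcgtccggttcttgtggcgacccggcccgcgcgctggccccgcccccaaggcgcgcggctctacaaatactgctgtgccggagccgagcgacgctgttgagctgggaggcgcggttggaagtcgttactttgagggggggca
Id3: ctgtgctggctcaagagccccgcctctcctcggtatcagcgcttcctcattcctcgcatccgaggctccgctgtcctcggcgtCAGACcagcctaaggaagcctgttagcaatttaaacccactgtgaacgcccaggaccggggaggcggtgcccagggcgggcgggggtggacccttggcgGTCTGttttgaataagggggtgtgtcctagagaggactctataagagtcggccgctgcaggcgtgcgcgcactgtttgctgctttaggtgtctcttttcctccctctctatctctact

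Id2 and Id4 each held 1 GGCGCC, with its leftmost base at -231 and -148 from the start site, and no CAGAC. Id3 held no GGCGCC and 2 CAGAC elements, at -167 and, on the other strand, at -68. Over all 32851 windows of that length, 11.9% held GGCGCC and 49.6% held CAGAC. Over the 33 windows of the members the shares were 36.4% and 42.4%, and those windows were richer in G and C (median 68%, against 52.7% over all windows). A match is a description of letters and not evidence of binding.

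The series gives no strand setting, so reads of genes on opposite strands cannot be told apart. In GENCODE M21, exons of 12 members overlap those of another gene, 11 on the opposite strand, including Bmp4, Bmp5, Fst, Fstl3, Acvr2a and Id4. Among the partners listed in the table, Orc4, opposite Acvr2a, was at 2.40 to 2.89 FPKM in Grx2-/- and 4.03 to 4.40 FPKM in Grx2+/+, the reverse of Acvr2a. Txndc5, opposite Bmp6, was at 195 to 201 FPKM in Grx2-/- and 173 to 181 FPKM in Grx2+/+, far above Bmp6, so the level of Bmp6 is uncertain. Thpo, opposite Chrd, was at 0.0766 to 0.149 FPKM in Grx2-/- and 0 to 0.0143 FPKM in Grx2+/+, the same direction as Chrd. Prss57, opposite Fstl3, and A330033J07Rik, opposite Id4, reached at most 0.217 and 0.0431 FPKM.

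A further 65 genes of the pathway were listed from textbook knowledge, of which 60 were in the table and 30 tested. In Grx2-/- libraries 10 rose (33.3%), 13 fell (43.3%) and 7 were not called, with a median log2 difference of -0.08. Of all tested genes 42.7% were called higher and 24.6% lower. With either rescaling 8 of the wider list rose and 16 fell. Dlx5, a homeobox factor of osteoblasts induced by BMPs, had 1.06, 0.675 and 0.663 FPKM in Grx2-/- libraries and 14.9, 14.5 and 15.4 FPKM in Grx2+/+ libraries (-3.15 ± 0.087, adjusted p = 5.63e-08). The adjusted p of the next 4 genes described ran from 8.47e-08 to 3.55e-06. Bmp1, a metalloprotease that cleaves procollagen and chordin and is not a BMP ligand, was at 32.3 ± 2.03 FPKM in Grx2-/- and 123 ± 7.31 FPKM in Grx2+/+ (-1.90). Rgma, a BMP co-receptor, rose to 5.31 ± 0.196 FPKM in Grx2-/-, against 0.882 ± 0.0708 FPKM in Grx2+/+ (1.75). Smurf2, a ubiquitin ligase that targets SMADs and receptors, fell to 14.9 ± 0.968 FPKM in Grx2-/-, against 34.7 ± 1.39 FPKM in Grx2+/+ (-1.16). Ski, a co-repressor bound by SMADs, rose to 57.3 ± 2.45 FPKM in Grx2-/-, against 36.8 ± 0.635 FPKM in Grx2+/+ (0.62).

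The listed BMP or activin targets did not follow the ID genes as a group. Of 5 tested, 2 rose (40%) and 3 fell (60%), beside 42.7% higher and 24.6% lower over all tested genes. Junb rose slightly (0.18, adjusted p = 0.00845) and Tgif1 fell (-0.38, adjusted p = 0.000419). Atoh8, named after its value was seen, was at 33.6 ± 4.88 FPKM in Grx2-/- and 10.9 ± 1.34 FPKM in Grx2+/+ (1.53 ± 0.11, adjusted p = 7.07e-06). Hey1, a Notch and BMP target, was lower, at 0.920 ± 0.194 FPKM in Grx2-/- and 3.13 ± 0.161 FPKM in Grx2+/+ (-1.11 ± 0.081, adjusted p = 8.11e-06). The homeobox genes Msx1 and Msx2 lay under the filter, Msx1 at 0.290 to 0.365 FPKM in Grx2-/- and 1.11 to 1.61 FPKM in Grx2+/+, and Msx2 at 0.361 to 0.506 FPKM in Grx2-/- and 1.27 to 1.5 FPKM in Grx2+/+. Dlx3, also under the filter, overlapped, at 0.692 to 0.894 FPKM in Grx2-/- and 0.753 to 0.879 FPKM in Grx2+/+. Hey1, Msx1, Msx2, Dlx3, Junb and Tgif1 were likewise chosen after their values were seen. Dlx5 and Msx2 are also expressed in osteoblasts, whose markers were lower in Grx2-/-, and the part of that difference was not tested.

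**Figure D5:**
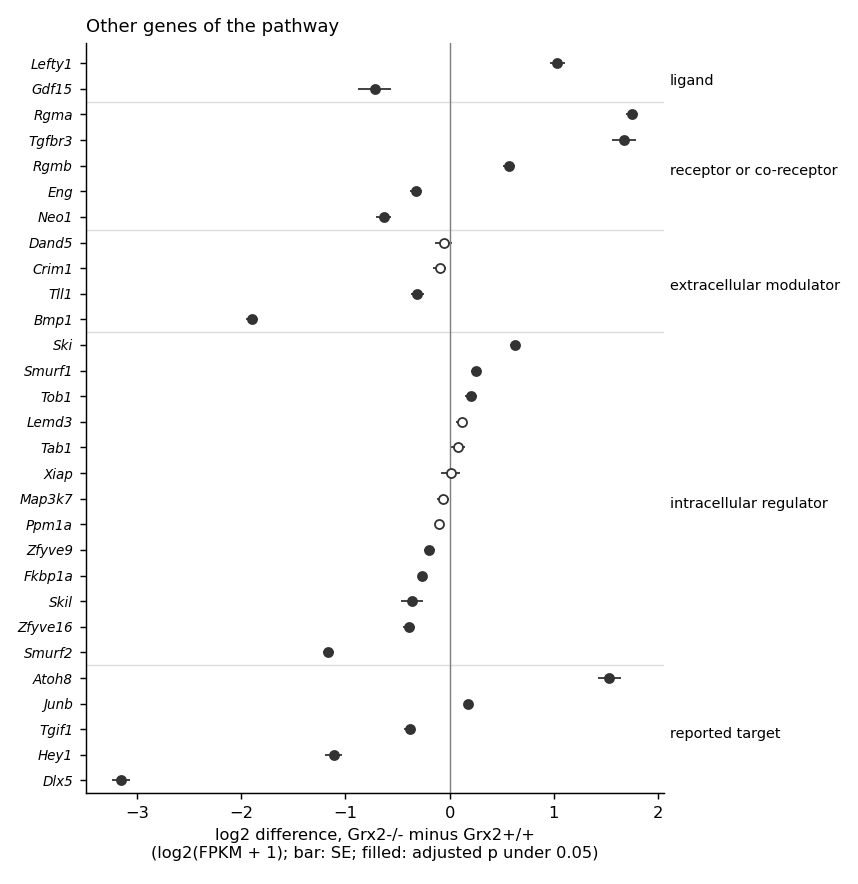
log2 difference, Grx2-/- minus Grx2+/+, of log2(FPKM + 1) for 29 of the 30 tested genes of the wider pathway list, by role. Points are limma estimates with SE and filled points have an adjusted p under 0.05; differences ran from -3.15 (Dlx5) to 1.75 (Rgma).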

How the data were processed

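Per the labels' protocols, RNA extracted with TRIzol went into VAHTS Universal libraries. The authors deposited FPKM values for 6 libraries; the submitters' processing notes list build GRCm39, the aligner HISAT2, the counter HTSeq and R 3.2.0. Not given in the sources used here were annotation, filters and strand. Libraries were grouped by the genotype in the labels. FPKM was used without further scaling, so a shift in composition between libraries is not corrected.

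Values step by the worth of 1 read, from which whole reads could be recovered for 22980 of 22984 genes (99.98%, tolerance 1e-06 reads). Replicates of a genotype differed by more than sampling noise. Genes with a mean of at least 1 FPKM (11083) were fitted as log2(FPKM + 1) with limma 3.58.1 in R 4.3.3 (lmFit, eBayes with trend), two-sided, with Benjamini-Hochberg adjustment over all of them; such differences understate the change of low genes. The procedure was checked on simulated data with the same spread setting for all genes and far fewer changed genes than were called here. That check therefore does not show the error rate of the calls made here. The members, lists, tests and alternatives were chosen with earlier results of these data known.

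Values in every library are given for called members that do not overlap and whose log2 difference is at least 1 in size, for the most abundant member of each role, and for Bmpr2, Bmper and Smad6, chosen after their values were seen; of the wider list, the 6 with the smallest p, of which 1 is not reported here. Members under the filter are given as ranges, except Chrd, the nearest to the filter, and Bmp7, given in reads. Named genes beyond these are given as means or marked as chosen after their values were seen. Exon overlap used GENCODE M21 (GRCm38), another build than the table's. Alternatives were a pseudocount of 0.1, no filter, a mean of at least 5 FPKM, median-of-ratios scaling, quantile normalization, no trend, a replicate block, leaving out each library, both libraries furthest from their groups left out, a 2-fold minimum and voom on recovered reads, which was added after the data were examined. Figures were drawn with matplotlib 3.10.9.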

Additional observations from a re-analysis of the deposited data

How the results depend on the processing

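Of 500 values of the 34 tested members under the alternatives, 469 kept direction and side of the threshold, 7 passed that had not, 17 no longer passed and 7 reversed, all in 9 members. The reversals were of Bmpr1a (-0.069 with median-of-ratios scaling and -0.106 with quantile normalization, where it passed at an adjusted p of 0.0452) and Smad9 (-0.050 and -0.077 with these, and -0.058 to 0.090 with 1 library left out, below 0 without Grx2-/- replicate 1 or Grx2+/+ replicate 1 or 3), neither called in the reported fit. With 1 library left out, 17 to 19 members were higher and 9 to 11 lower; without both libraries furthest from their groups, 19 and 10.

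A 2-fold minimum left 8 members higher and 3 lower: 1 and 2 ligands, 1 and 0 receptors, 4 and 1 antagonists, 0 and 0 SMADs, and 2 and 0 ID genes; 5 and 4 genes of the wider list; and 719 and 392 of all genes. By construction, testing all 12 ligands (no filter) gave 4 higher and 7 lower, and a mean of at least 5 FPKM, which keeps 2 ligands and 6 antagonists, gave 1 and 1 ligands and 5 antagonists higher. Lower SMADs numbered 5 with median-of-ratios scaling and 5 with quantile normalization, and voom on recovered reads, added after the data were examined, called 2 SMADs higher. The median of the tested members was 0.14 with median-of-ratios scaling, 0.10 with quantile normalization and 0.28 with voom; the cause was not tested.

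The replicate block gave 19 members higher and 10 lower, as without it. Deviations of same-numbered libraries correlated at 0.11, 0.12 and 0.02, and Grx2-/- replicate 3 correlated better with Grx2+/+ replicate 2 (0.05). Such correlations, of deviations around means of 3 libraries, cannot decide whether the numbers mark pairs. The labels do not say that they do, so the numbers were not taken as pairs. The planned count tests (quasi-likelihood and negative binomial) were not run; voom on the recovered reads took their place. Depth limits the lowest members: Bmp7 rests on 0 to 27 reads per library and Gdf5 on 6 to 23.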

Other observations

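Within genotypes the members were not spread evenly over libraries. Grx2-/- replicate 1 was the highest of its group for 21 of the 34 tested members (61.8%), where it was highest for 41.8% of all tested genes. Grx2+/+ replicate 2 was the highest of its group for 19 of 34 (55.9%), beside 50.8% of all tested genes, and it was also highest in the summed neutrophil markers (2561 FPKM, against 882 and 1404 FPKM in Grx2+/+ replicates 1 and 3). These counts are descriptions, without a test.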
